A study of Sus scrofa with 5 samples.

Results

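The genes described here are 42 cell cycle genes of S phase, G2 phase and mitosis, with the D-type cyclins and 2 inhibitors that act before them. They were taken by name from a list and not by a rule on their values, but the list was chosen with earlier results of these data known. All 42 were found among the 30029 gene symbols of the single-cell tables and among the 29886 symbols of the bulk table. Porcine blastoids are embryo-like structures grown from porcine embryonic stem cells (pESCs), and 2 blastoid libraries were read by droplet scRNA-seq (10x Genomics) at day 6. The pESCs were measured by bulk poly(A) RNA-seq in 3 libraries.

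The pESCs came from parthenogenetic blastocysts and were kept in 4FIXY medium, which holds activin A, IGF1, IL-6, the soluble IL-6 receptor α, XAV939, IWR1 and Y27632, on mouse embryonic fibroblast feeders arrested with mitomycin C. For blastoids, single pESCs first aggregated without IWR1 and were then moved to iBlastoid medium, which also lacks IWR1 and adds LIF, CHIR99021, SB431542, DZNep, TSA, BMP4 and bFGF. Structures with a cavity were picked by hand and pooled, so each blastoid library is a mix of many structures, and the labels do not say whether the 2 libraries came from separate cultures. The p-values below therefore measure the spread between 2 libraries, which may be technical. One of the 3 bulk columns has a name that begins with IVF, and the names could not be tied to single samples, so the columns are given by name as 3 libraries of 1 group. The column names also differ in their endings, P25 or P7. The SD over these columns may thus hold more than the spread between replicates. POU5F1, a defining marker of pluripotent cells, lay between 432 and 639 FPKM (fragments per kilobase of transcript, scaled to the mapped fragments of the library) in them, and SOX2 between 182 and 241 FPKM.

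The blastoid libraries held 289452283 and 302211552 unique molecular identifiers (UMIs, 1 per captured RNA molecule). Cells were the barcodes that reached 11223 UMIs (library 1) or 9805 UMIs (library 2), which gave 7369 and 8175 cells with medians of 29728 and 27588 UMIs. The libraries shared 9 of these cell barcodes.

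In a dividing cell, the genome is licensed in G1 phase when CDC6 and CDT1 load the MCM2 to MCM7 helicase at replication origins. Cyclin E and E2F1 drive the step into S phase, where PCNA and its partners copy DNA, and CDK1 with cyclins A and B then starts mitosis, which ends when the anaphase-promoting complex with CDC20 and UBE2C marks cyclin B for destruction. D-type cyclins act upstream in G1 phase, CDKN1A (p21) and CDKN1B (p27) hold cyclin-dependent kinases back, and pluripotent cells are known for short G1 phases.

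S-phase genes are known to be switched on through E2F sites, and genes of G2 phase and mitosis through CCAAT boxes, bound by NF-Y, together with the cell cycle genes homology region (CHR). Letters of these kinds were looked for on both strands in the 250 bases before the annotated start of each gene in the Sscrofa11.1 assembly and its RefSeq annotation, the same assembly as the susScr11 build used for the deposited tables. The box was read as CCAAT and the CHR as the letters TTTGAA. An E2F site was read as any of TTTCCCGC, TTTGGCGC, TTTGCCGC or TTTCGCGC, and these can overlap one another. CCAAT stood in 12 of the 20 mitosis promoters (60.0%) and in 32.0% of 20664 promoters of protein-coding genes, and 7 of the 20 (35.0%) held at least 2 copies, against 9.01% of all. CCAAT was as common among the 18 S-phase and G1/S genes, with 10 promoters (55.6%), 3 of them with at least 2 copies. TTTGAA stood in 7 of the 20 mitosis promoters (35.0%) and in 3 of the 18 (16.7%, all promoters 13.0%). The 4 mitosis promoters with both are shown here because 2 of them, MKI67 and TOP2A, mark the positive cells described below and the others, CDK1 and UBE2C, had the highest ratios in those cells, by the lower of their 2 libraries. MCM6 is shown as the S-phase promoter with the most E2F letters. Each is written 5′ to 3′ and ends at the base before the gene start, with matches in capitals, and capitals that touch or overlap can hold more than 1 match.
MKI67 (chr14:137296313-137296562, minus strand): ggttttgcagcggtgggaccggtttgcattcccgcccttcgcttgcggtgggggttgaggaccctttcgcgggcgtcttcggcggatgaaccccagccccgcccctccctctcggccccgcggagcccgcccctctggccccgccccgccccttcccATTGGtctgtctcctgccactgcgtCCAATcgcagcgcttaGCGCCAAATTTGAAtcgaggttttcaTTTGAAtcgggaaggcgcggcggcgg
TOP2A (chr12:22001050-22001299, plus strand): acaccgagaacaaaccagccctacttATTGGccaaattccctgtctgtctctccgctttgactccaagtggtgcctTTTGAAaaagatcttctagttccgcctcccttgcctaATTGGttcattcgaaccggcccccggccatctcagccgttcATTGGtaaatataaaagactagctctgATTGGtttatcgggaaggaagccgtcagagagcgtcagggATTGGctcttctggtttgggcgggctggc
CDK1 (chr14:64233695-64233944, plus strand): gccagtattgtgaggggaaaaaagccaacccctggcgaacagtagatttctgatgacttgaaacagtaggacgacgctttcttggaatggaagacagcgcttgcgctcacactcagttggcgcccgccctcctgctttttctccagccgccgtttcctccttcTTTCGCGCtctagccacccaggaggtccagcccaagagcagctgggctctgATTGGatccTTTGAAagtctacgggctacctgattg
UBE2C (chr17:48018153-48018402, plus strand): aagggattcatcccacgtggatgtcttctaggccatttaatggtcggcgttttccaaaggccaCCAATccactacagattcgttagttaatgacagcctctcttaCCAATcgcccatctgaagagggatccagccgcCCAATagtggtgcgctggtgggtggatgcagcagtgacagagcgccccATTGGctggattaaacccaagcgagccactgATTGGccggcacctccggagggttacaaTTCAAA
MCM6 (chr15:15923388-15923637, plus strand): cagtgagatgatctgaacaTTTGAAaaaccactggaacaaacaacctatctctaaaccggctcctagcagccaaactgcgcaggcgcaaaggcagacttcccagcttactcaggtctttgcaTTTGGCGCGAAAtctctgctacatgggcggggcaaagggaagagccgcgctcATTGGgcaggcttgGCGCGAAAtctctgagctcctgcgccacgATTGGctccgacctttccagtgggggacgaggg
TOP2A and UBE2C each held 5 CCAAT boxes and 1 CHR, and in UBE2C the CHR was the last 6 bases before the start. CDK1 held 1 CCAAT box 36 bases before the start, 1 CHR 27 bases before it and 1 E2F match. MCM6 held 3 E2F matches, 2 of them overlapping, 2 CCAAT boxes and 1 CHR. E2F letters stood in 6 of the 42 promoters (14.3%, all promoters 2.71%), which were 4 of the 20 mitosis promoters and 2 of the 18 S-phase and G1/S promoters, none of these in the replication or G1/S genes. The promoters of CCND1, CCND2, CDKN1A and CDKN1B held no CCAAT box. These matches describe letters and not bound sites.

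All 42 genes were measured in pESCs. In bulk RNA, fewer cells in a phase and less RNA per cell cannot be told apart. Each reached 1 FPKM in all 3 libraries, as did 37.0% of the 29886 symbols, and the median of the 42 mean levels was 41.0 FPKM against 10.6 FPKM over all symbols that reached 1 FPKM in the 3 libraries. The licensing and replication genes stood highest. MCM7 had 278, 200.2 and 144 FPKM in the columns IVFP25, PA_4P7 and PAP25 (207 ± 67.0, SD, n = 3), and TYMS, which makes thymidylate, had 235, 286 and 96.3 FPKM (206 ± 98.2). PCNA, the sliding clamp of the DNA polymerases, had 189.5, 188 and 132 FPKM (169.6 ± 32.9). The 3 values of each of these genes were widely spread, with the lowest in PAP25. The other MCM genes were steadier, as MCM6 with 94.8, 98.9 and 99.3 FPKM and MCM4 with 97.8, 107 and 97.8 FPKM. By role, the median of mean levels was 95.2 FPKM for the 9 licensing genes, 89.7 for the 6 genes of replication and nucleotide supply, 40.8 for the 20 mitosis genes, 12.6 for the 3 G1/S genes, 10.7 for the 2 D-type cyclins and 7.51 for the 2 inhibitors.

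Within a role the genes were far apart. The genes called licensing are a group by name that also holds GINS2, a part of the replicative helicase and not among the licensing factors named above. In this group CDC6 had 6.42 ± 0.343 FPKM and GINS2 6.21 ± 1.45 FPKM, both far below the MCM genes. Cyclin E was carried mostly by CCNE1, with 13.4, 12.6 and 11.7 FPKM, while CCNE2 had 1.56, 1.09 and 2.13 FPKM, the lowest of the 42 genes. E2F1 had 15.9, 14.6 and 15.8 FPKM. Of the D-type cyclins, CCND1 had 16.6, 19.7 and 18.5 FPKM and CCND2 3.76, 2.14 and 3.25 FPKM, so that CCND1 exceeded CCND2 4.42-, 9.22- and 5.68-fold in the same 3 libraries.

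Among the mitosis genes, CDC20, an activator of the anaphase-promoting complex, stood first with 166, 147 and 161 FPKM (158 ± 9.95), followed by CCNB1 with 127 ± 11.3 FPKM, TOP2A with 120.2 ± 18.3 FPKM and UBE2C with 118 ± 11.1 FPKM. MKI67, the proliferation antigen Ki-67 that coats mitotic chromosomes, had 21.6, 28.9 and 35.6 FPKM. The steadiest members were the checkpoint kinase BUB1 with 41.7, 41.4 and 42.2 FPKM and the spindle kinase AURKA with 37.2, 37.0 and 36.4 FPKM. CDK1 was the least steady of all 42, with 80.4, 20.2 and 73.0 FPKM (57.9 ± 32.8). Its curated transcript had 79.3, 6.68 and 71.9 FPKM, whereas a predicted transcript had 1.17, 13.6 and 1.15 FPKM, so in PA_4P7 the fragments of this gene were divided differently between transcripts. CDKN1A also varied, with 14.8, 7.21 and 5.63 FPKM, while CDKN1B had 5.49, 5.50 and 6.44 FPKM. In the order of the 42 mean levels, the library ranges of 33 of 41 neighbouring pairs overlapped, and the 8 pairs apart included CDC20 above CCNB1, CCND1 above E2F1, CDKN1B above CCND2 and CCND2 above CCNE2.

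**Figure D1:**
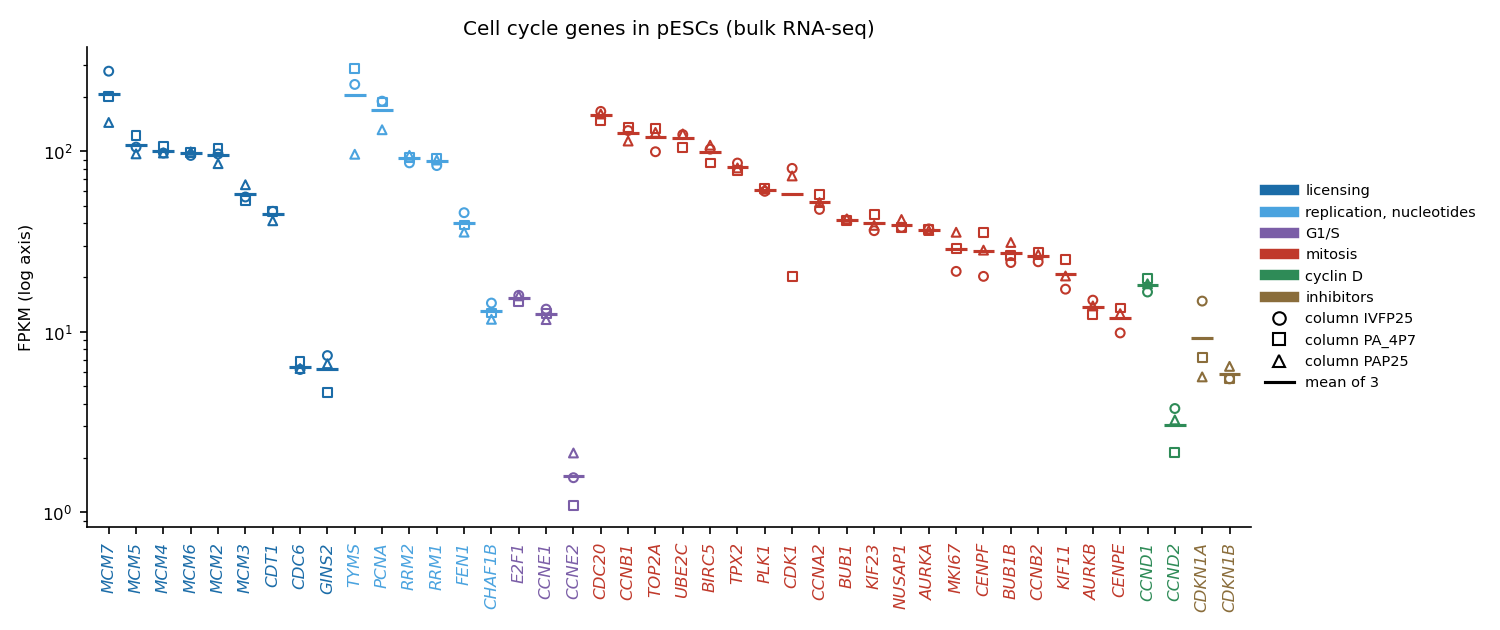
FPKM of the 42 genes in the 3 pESC libraries, on a log axis, grouped and coloured by role, with symbols for the 3 columns and a bar at their mean. MCM7 and TYMS stand highest at 207 and 206 FPKM, CCNE2 lowest at 1.59 FPKM, and CDK1 and TYMS show the widest spread among the high genes.

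To ask which blastoid cells divide, cells were counted as positive for MKI67 and TOP2A when these genes together had at least 2 UMIs after every cell had been thinned at random to 9805 UMIs. Cells were grouped by gates, at least 3 thinned UMIs of POU5F1, CRABP1, GABRP, TP63, THSD7B or COL3A1, and kept where they passed exactly 1 gate. A gate is called by its gene and not by a cell type. As labels of content, the POU5F1 gate had DNMT3B at a mean of 286 UMIs per 1000000 UMIs (CPM) and NANOG at 6.63 CPM, the COL3A1 gate had COL1A2 at 1161 CPM, the GABRP gate had TAC3 at 175 CPM and the THSD7B gate had NEUROG1 at 415 CPM. In the TP63 gate the keratin genes KRT5 and KRT15, which mark stratified surface epithelium, were near 0, at 0.240 and 0.532 CPM. These markers are part of longer lists whose other members are not given here, so they name no cell type.

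Among all cells, 33.0% of 7369 were positive in library 1 and 33.7% of 8175 in library 2. In the POU5F1 gate, 43.6% of 431 cells (exact 95% interval 38.9 to 48.4%) and 41.7% of 758 cells (38.2 to 45.3%) were positive. In the GABRP gate the shares were 20.3% of 1292 cells (18.1 to 22.6%) and 22.9% of 1276 cells (20.6 to 25.3%). The intervals of these 2 gates were far apart in both libraries. They cover counting error only, as do all intervals given here, and a two-sided exact permutation test of 2 against 2 libraries cannot give a p below 0.333.

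The other gates lay between or below. The COL3A1 gate had 36.5% of 578 and 37.3% of 440 cells, and the CRABP1 gate 38.4% of 320 and 34.3% of 530 cells, so that these neighbours in the order overlapped. The TP63 gate had 29.8% of 506 and 27.6% of 464 cells, below the COL3A1 and CRABP1 gates and above the GABRP gate in both libraries. The THSD7B gate had only 23 and 20 cells, of which 4 and 3 were positive (17.4% and 15.0%), and its intervals ran from 4.95 to 38.8% and from 3.21 to 37.9%, which include the shares of the GABRP, TP63, CRABP1 and COL3A1 gates. With a gate of 2 UMIs it had 25 cells in each library and shares of 16.0% and 24.0%. As means with SD over 2 libraries, the shares were 42.7 ± 1.37% for POU5F1, 36.9 ± 0.54% for COL3A1, 36.4 ± 2.90% for CRABP1, 28.7 ± 1.60% for TP63, 21.6 ± 1.84% for GABRP and 16.2 ± 1.69% for THSD7B. The lead of the POU5F1 gate depended on the limit of 2 UMIs. At 3 or more UMIs it had 30.4 and 30.5%, the COL3A1 gate 28.7 and 31.8% and the CRABP1 gate 30.3 and 24.9%. The TP63 gate then had 24.9 and 18.5% and the GABRP gate 15.2 and 16.7%. At 10 or more UMIs the POU5F1 gate had 1.16 and 1.06%, and the COL3A1 gate 6.06 and 6.36%. Cells that passed the GABRP and TP63 gates together, and so belonged to neither, had 18.2% of 352 and 18.5% of 340 cells. The 7887 cells that passed no gate had 37.5% and 37.4%.

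Depth moved with these shares. Even after thinning, and with the cells of each library put into 4 depth classes of equal size, the share over all cells went from 16.8% in the shallowest class to 55.2% in the deepest class of library 1, and from 18.4% to 56.1% in library 2. The gates differed in depth, with medians of 39493 and 34538 UMIs in the POU5F1 gate, 28491 and 25824 in the GABRP gate and 22695 and 19762 in the COL3A1 gate. Within these classes the GABRP gate had the lowest share of the 5 gates other than THSD7B in 7 of 8 classes, for example 8.56% and 8.99% in the shallowest class, where the POU5F1 gate had 40.4% and 34.2%. The exception was depth class 3 of library 2, where the GABRP gate had 36.4%, the POU5F1 gate 35.0% and the CRABP1 gate 33.6%. The place of the POU5F1 gate at the top did not hold. With each class weighted equally, a setting added after the data were seen, the COL3A1 gate had 44.2% and 49.8%, the CRABP1 gate 41.1% and 37.6%, the POU5F1 gate 37.8% and 37.4%, the TP63 gate 32.1% and 31.2% and the GABRP gate 21.2% and 24.6%. Free RNA also held these genes. In barcodes with 10 to 100 UMIs, which hold droplets without a cell, TOP2A was at 106 and 94.7 CPM and MKI67 at 21.3 and 17.9 CPM, against 185 and 190 CPM and 29.8 and 31.8 CPM in cells. Of the 42 genes, 11 were lower in cells than in these barcodes by the ratio of mean CPM, 5 of them licensing genes. The same share was not taken over all genes, so neither count can be called high or low. MCM5 was at 56.7 and 67.4 CPM in these barcodes and at 51.9 and 55.1 CPM in cells. Of the 42, CDC20 had the lowest ratio of cells to these barcodes, 0.590. The part of free RNA in the differences between gates was not tested.

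**Figure D2:**
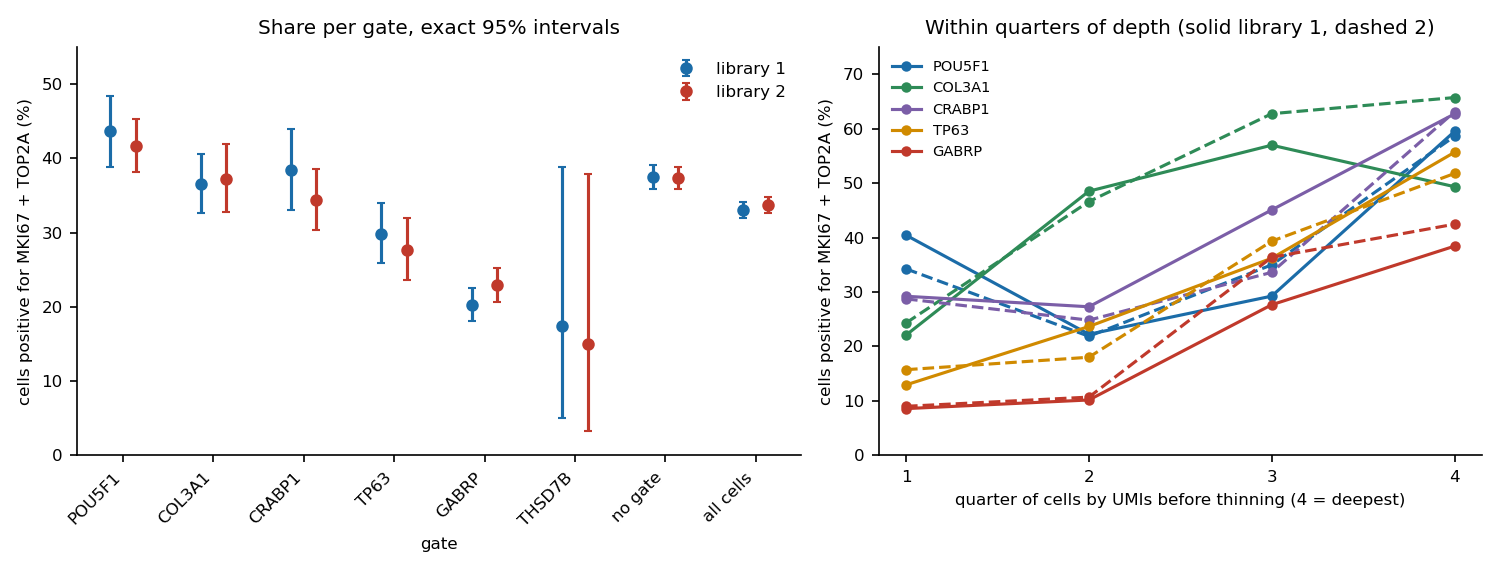
Left, percent of cells positive for MKI67 and TOP2A in each gate, per library, with exact 95% binomial intervals. Right, the same percent within 4 classes of equal size by UMIs before thinning (class 1 is the shallowest), for 5 gates. The GABRP gate lies below the POU5F1, COL3A1, CRABP1 and TP63 gates on the left, and on the right in 7 of 8 classes, whereas the POU5F1 gate is the highest on the left and lies below the COL3A1 gate in classes 2 and 3 of both libraries on the right.

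The S-phase genes and the mitosis genes put the 5 larger gates in the same order in both libraries, and the steps between gates differed. The 18 licensing, replication and G1/S genes together had 16.7 and 17.2 UMIs per thinned cell in the POU5F1 gate, 12.2 and 12.7 in the CRABP1 gate, 11.2 and 11.3 in the COL3A1 gate, 9.25 and 9.95 in the TP63 gate and 7.07 and 6.93 in the GABRP gate. Of the mitosis genes, the 18 other than MKI67 and TOP2A had 17.8 and 18.4 UMIs in the POU5F1 gate, 16.9 and 15.6 in the CRABP1 gate, 15.4 and 15.5 in the COL3A1 gate, 12.9 and 11.6 in the TP63 gate and 8.78 and 9.50 in the GABRP gate. The POU5F1 gate was thus apart from the next gate in S-phase genes by a wider margin than in mitosis genes, and its ratio of mitosis to S-phase UMIs, 1.07 in both libraries, was lower than the 1.17 to 1.40 of the COL3A1, CRABP1, TP63 and GABRP gates. The THSD7B gate had the lowest ratio, 0.569 and 0.622, with 10.1 and 9.65 UMIs of S-phase genes and only 5.74 and 6.00 of mitosis genes in its 23 and 20 cells. Within the POU5F1 gate, positive cells had 16.9 S-phase UMIs and other cells 16.5 in library 1, and 16.5 and 17.6 in library 2. In the GABRP gate the same values were 9.81 and 6.37 in library 1 and 9.88 and 6.05 in library 2. Of the 18 mitosis genes, cells that were not positive still had 11.7 and 12.1 UMIs in the POU5F1 gate. In the CRABP1, COL3A1, TP63 and GABRP gates such cells had 4.38 to 8.49 UMIs.

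**Figure D3:**
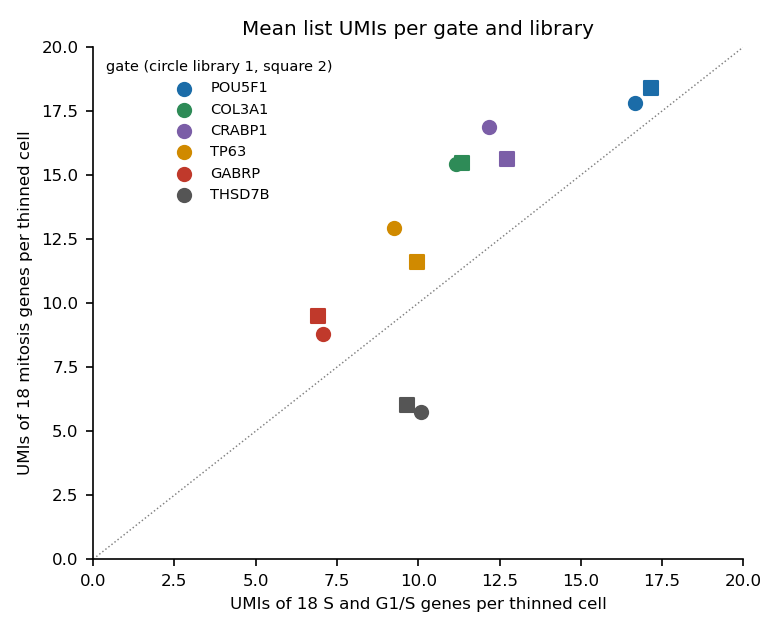
Mean UMIs per thinned cell of the 18 S-phase and G1/S genes (x axis) and of the 18 mitosis genes other than MKI67 and TOP2A (y axis), 1 point per gate and library, with a dotted line at equal values. The POU5F1 points lie at the upper right close to the line, the GABRP points lowest among the gates above the line, and the THSD7B points below it.

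Each gate was then compared with the mean of the other 5 gates with the quasi-likelihood test of edgeR, and p-values were adjusted by Benjamini-Hochberg over 17060 genes, on raw UMIs summed per library and gate (12 sums). All 42 genes passed the filter on low counts, and none of them had set the gates. The 6 comparisons share their sums, so their results are not independent of each other. Deep cells weigh more in raw sums, and no comparison was matched for depth. In library 1, 200 of 431 cells of the POU5F1 gate were in the deepest class, against 75 of 578 of the COL3A1 gate. The part of depth in these calls was not tested. In the POU5F1 gate, 32 of the 42 genes were higher, where 25.3% of all genes were called higher, and 1 was lower (background 21.5%). In the COL3A1 gate 22 were higher (24.4%) and 2 lower (19.0%), and in the CRABP1 gate 13 were higher (15.4%) and 2 lower (12%). In the GABRP gate 31 were lower (17.1%) and 2 higher (25.2%). In the TP63 gate 10 were lower (13.3%) and 3 higher (17.1%), with 6 higher when library was a block in the fit (background 18.8%). In the THSD7B gate 13 were lower (7.95%) and 0 higher (7.74%), with 2 higher at an unadjusted p below 0.05 (background 11.7%) and 2 higher by DESeq2 (background 11.2%). The median log2 fold change of the 42 was 0.51 in the POU5F1 gate, where that of all genes was 0.04, and −0.35 in the GABRP gate, where that of all genes was 0.05. In the THSD7B gate it was −0.49, where the median of all genes was itself below 0, at −0.17. Every gene called had the same sign in both libraries.

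All 9 licensing genes were higher in the POU5F1 gate and all 9 lower in the GABRP gate. Without the THSD7B gate, 8 of the 9 were higher in the POU5F1 gate, as were 29.2% of all genes. MCM5, a helicase subunit, had 86.4 and 89.1 CPM in the POU5F1 gate, 50.7 and 53.5 in the COL3A1 gate, 49.5 and 53.9 in the CRABP1 gate, 37.9 and 45.2 in the TP63 gate and 33.3 and 32.1 in the GABRP gate. Its libraries were close together and the POU5F1 values overlapped with no other gate. The log2 fold change was 0.94 ± 0.07 (SE) in the POU5F1 gate (edgeR quasi-likelihood test, adjusted p = 1.28e-07) and −0.52 ± 0.08 in the GABRP gate (edgeR, adjusted p = 0.000108). The 6 genes of replication and nucleotide supply were also all higher in the POU5F1 gate and all lower in the GABRP gate. PCNA had 258 and 274 CPM in the POU5F1 gate, 162 and 165 in the COL3A1 gate, 143 and 159.6 in the CRABP1 gate, 81.9 and 102 in the TP63 gate and 78.8 and 82.6 in the GABRP gate. RRM2, the regulated subunit of ribonucleotide reductase, had 149 and 142 CPM in the POU5F1 gate and 46.6 and 43.9 in the GABRP gate. PCNA was 1.18 ± 0.08 higher on the log2 scale in the POU5F1 gate and RRM2 1.13 ± 0.05 (edgeR, adjusted p = 3.12e-08 and 1.46e-09). In the COL3A1 gate 4 of the 18 S-phase and G1/S genes rose, MCM3, MCM6, PCNA and FEN1 (24.4% of all genes). GINS2 fell there (19.0% of all genes), and 13 of the 18 did not pass the test. These genes were thus called no more often than genes in general.

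Of the G1/S genes, CCNE1 had 24.5 and 24.7 CPM in the POU5F1 gate and 9.06 and 8.72 in the GABRP gate, a log2 fold change of 0.76 ± 0.09 (edgeR, adjusted p = 6.24e-06) and −0.76 ± 0.10 (edgeR, adjusted p = 2.25e-05). E2F1, which switches on many S-phase genes, was highest outside the POU5F1 gate. It had 29.8 and 20.0 CPM in the small THSD7B gate, 20.3 and 27.1 CPM in the CRABP1 gate, 15.7 and 19.5 in the POU5F1 gate, 15.2 and 17.1 in the COL3A1 gate, 7.67 and 9.80 in the TP63 gate and 6.42 and 6.41 in the GABRP gate. The GABRP and TP63 gates were below the others in both libraries. E2F1 rose in the CRABP1 gate by 0.72 ± 0.14 and fell in the GABRP gate, with a log2 fold change of −1.23 ± 0.15, and in the TP63 gate, with −0.89 ± 0.16 (edgeR, adjusted p = 0.00108, 1.26e-05 and 0.000783). In the POU5F1 gate it did not pass the test (0.29 ± 0.13, edgeR, adjusted p = 0.095), and passed with library as a block (adjusted p = 0.0418). CCNE2 was at or below 6.64 CPM in the 5 larger gates and fell in the GABRP gate (−0.87 ± 0.22, edgeR, adjusted p = 0.00453).

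Of the 20 mitosis genes, 15 were higher in the COL3A1 gate, 15 in the POU5F1 gate and 9 in the CRABP1 gate, 12 were lower in the GABRP gate, 11 in the THSD7B gate and 1, AURKB, in the TP63 gate. MKI67 had 35.2 and 41.5 CPM in the COL3A1 gate, 40.2 and 36.2 in the CRABP1 gate, 31.5 and 32.9 in the POU5F1 gate, 28.4 and 27.4 in the TP63 gate and 18.9 and 21.5 in the GABRP gate. The COL3A1 and CRABP1 values overlapped, those of the POU5F1 gate lay below both, and those of the GABRP gate were the lowest. MKI67 rose in the COL3A1 gate by 0.50 ± 0.09 (edgeR, adjusted p = 0.000415) and fell in the GABRP gate, with −0.49 ± 0.09 (edgeR, adjusted p = 0.000625), and in the POU5F1 gate it was 0.08 ± 0.09 (edgeR, adjusted p = 0.529). TOP2A, the topoisomerase that untangles chromosomes, had 228 and 240.3 CPM in the COL3A1 gate, 225 and 199 in the CRABP1 gate, 199 and 199.8 in the POU5F1 gate and 115 and 128 in the GABRP gate. It rose in the COL3A1 gate by 0.60 ± 0.06 and in the POU5F1 gate by only 0.18 ± 0.06 (edgeR, adjusted p = 2.02e-06 and 0.0276). The latter was lost with a gate of 2 UMIs and without the THSD7B gate.

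CDK1 and its cyclins CCNA2, CCNB1 and CCNB2 each had their highest level in the POU5F1 gate in both libraries. CCNA2 had 56.0 and 62.0 CPM there and 52.6 and 49.2 in the CRABP1 gate, the next in order, and CCNB2 had 35.8 and 36.1 and 31.1 and 31.4 CPM in the same gates. CCNB1, the B-type cyclin that activates CDK1, had 122 and 125 CPM in the POU5F1 gate, 111 and 87.0 in the CRABP1 gate, 87.5 and 82.1 in the COL3A1 gate, 70.2 and 60.9 in the TP63 gate and 46.9 and 53.7 in the GABRP gate. CDK1 had 141 and 153 CPM in the POU5F1 gate, 129.8 and 131 in the CRABP1 gate, 122 and 125 in the COL3A1 gate, 86.0 and 79.9 in the TP63 gate, 67.4 and 76.2 in the GABRP gate and 29.8 and 59.9 in the THSD7B gate. The log2 fold changes in the POU5F1 gate were 0.87 ± 0.09 for CCNB1 and 0.76 ± 0.08 for CDK1 (edgeR, adjusted p = 2.11e-06 and 4.17e-06). PLK1, a kinase of mitotic entry and spindle assembly, had 97.7 and 88.0 CPM in the POU5F1 gate and 18.6 and 42.4 in the THSD7B gate, where it had a log2 fold change of −1.36 ± 0.29 (edgeR, adjusted p = 0.00493). In that gate CDK1 had −1.42 ± 0.23 (edgeR, adjusted p = 0.000492), CCNB1 −1.02 ± 0.25 and TOP2A −0.56 ± 0.13 (edgeR, adjusted p = 0.0114 and 0.00614). With a gate of 2 UMIs 4 of the 42 genes were lower in the THSD7B gate, PCNA, CDC20, NUSAP1 and BIRC5 (background 5.3%), and 1, MCM6, was higher (6.12%).

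In the COL3A1 gate the members with the largest rise in mitosis were AURKB (0.73 ± 0.09), CENPE (0.65 ± 0.09), UBE2C (0.63 ± 0.11) and KIF11 (0.61 ± 0.07), which are a kinase of the chromosomal passenger complex, a kinetochore motor, the ubiquitin carrier named above and the spindle motor Eg5 (edgeR, adjusted p = 1.05e-05, 3.67e-05, 0.00025 and 4.04e-06). The sums of the THSD7B gate, 536343 and 400571 UMIs against at least 9921600 in any other gate, enter every mean of the other gates. Without them, all 20 mitosis genes were lower in the GABRP gate, with CDK1, BUB1, BUB1B, AURKA, PLK1, KIF23, NUSAP1 and UBE2C added, and 40 of the 42 in all, where 25.9% of all genes were then called lower. In the TP63 gate 20 of the 42 were then lower (background 21.7%), 9 of them mitosis genes. In the CRABP1 gate 9 were then higher (18.8%), since FEN1, TOP2A, CCNB1, CDC20, AURKB and PLK1 were lost and CCNE1 and CCNE2 gained. In the GABRP gate with all gates, CDK1 had −0.24 ± 0.09 (edgeR, adjusted p = 0.0517, and 0.0259 with library as a block).

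**Figure D4:**
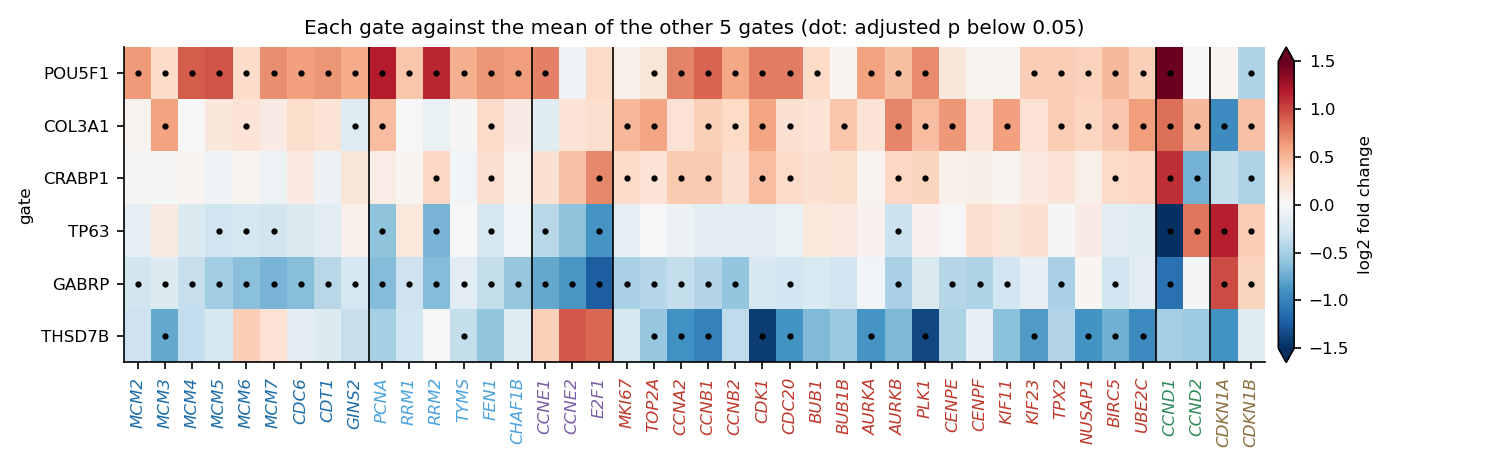
Log2 fold change (colour) of the 42 genes, ordered by role, in each gate against the mean of the other 5 gates, with a dot where the edgeR adjusted p was below 0.05 and colours saturated beyond 1.5 in either direction. The POU5F1 row is red across the licensing and replication genes, and the COL3A1 row is red mainly across the mitosis genes. Both rows have 15 dotted red mitosis genes. In the GABRP row CDKN1A and CDKN1B are the dotted red cells and the other dotted cells are blue.

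The D-type cyclins both rose in the COL3A1 gate and went opposite ways in the TP63 and CRABP1 gates. CCND1 had 64.9 and 65.2 CPM in the POU5F1 gate, 60.4 and 50.5 in the CRABP1 gate, 38.0 and 45.7 in the COL3A1 gate, 12.3 and 13.1 in the GABRP gate and 10.6 and 8.64 in the TP63 gate. The first 3 gates were apart from the last 2 in both libraries, with log2 fold changes of 1.47 ± 0.09, 1.10 ± 0.10, 0.83 ± 0.10, −1.11 ± 0.12 and −1.77 ± 0.15 (edgeR, adjusted p = 1.25e-08, 8.09e-07, 9.81e-06, 4.41e-06 and 5.48e-07). CCND2 was highest where CCND1 was lowest. It had 72.5 and 72.2 CPM in the TP63 gate, 61.5 and 52.8 in the COL3A1 gate, 47.7 and 45.8 in the POU5F1 gate, 39.5 and 40.9 in the GABRP gate and 33.4 and 32.0 in the CRABP1 gate. It rose in the TP63 gate by 0.81 ± 0.08 and in the COL3A1 gate by 0.48 ± 0.09, and fell in the CRABP1 gate, with −0.71 ± 0.10 (edgeR, adjusted p = 5.27e-06, 0.000435 and 9.29e-05).

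Of the inhibitors, CDKN1A rose in the TP63 and GABRP gates, which had the lowest shares of positive cells among the 5 larger gates. CDKN1A, a target of p53, had 44.3 and 41.5 CPM in the TP63 gate, 35.4 and 34.0 in the GABRP gate, 27.3 and 19.7 in the POU5F1 gate, 18.2 and 20.3 in the CRABP1 gate and 13.2 and 10.7 in the COL3A1 gate. The TP63 and GABRP gates were above the other 3 in both libraries and the COL3A1 gate below them. CDKN1A rose in the TP63 gate by 1.17 ± 0.13 and in the GABRP gate by 0.98 ± 0.12, and had −0.94 ± 0.18 in the COL3A1 gate (edgeR, adjusted p = 7.59e-06, 1.25e-05 and 0.000671). CDKN1B rose less, by 0.37 ± 0.10 in the TP63 gate, 0.33 ± 0.10 in the GABRP gate and 0.44 ± 0.10 in the COL3A1 gate, and fell in the POU5F1 gate (−0.46 ± 0.11) and the CRABP1 gate (−0.48 ± 0.12; edgeR, adjusted p = 0.0127, 0.012, 0.00341, 0.00303 and 0.00716). In the COL3A1 gate a higher CDKN1B thus stood beside a lower CDKN1A. In the TP63 gate CDKN1A and CDKN1B rose while 19 of the 20 mitosis genes did not pass the test, although 9 of the 20 were lower without the THSD7B gate.

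The split by MKI67 and TOP2A itself was then described across all cells, without a test, since these genes had made it. Of the other 40 members, 18 were past a log2 ratio of 0.5 in both libraries (5.31% of 23990 genes were), and all 18 were mitosis genes. None were past −0.5 (5.66% of genes). UBE2C had 556 and 84.3 CPM in positive and other cells of library 1, and 575 and 83.2 CPM in library 2, log2 ratios of 2.72 and 2.79. CDK1 had 202 and 39.3 CPM in library 1 and 219.9 and 40.9 CPM in library 2 (2.36 and 2.43), and the kinetochore protein CENPF had ratios of 2.39 and 2.32. The lowest mitosis gene was BIRC5, which encodes survivin, with 0.93 and 0.84, and the next were NUSAP1 with 1.11 and 1.09 and CDC20 with 1.27 and 1.13.

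With each gene taken as its mean log2 ratio of both libraries, the median over the 18 S-phase and G1/S genes was 0.15. The median was 1.88 over the 18 mitosis genes other than MKI67 and TOP2A. Over 9339 genes with at least 10 CPM it was 0.05. PCNA had 152 and 118 CPM in positive and other cells of library 1 and 157 and 133 CPM in library 2 (0.36 and 0.25), MCM5 had ratios of 0.26 and 0.19, MCM4 −0.03 and −0.10, E2F1 −0.03 and −0.23 and CCNE1 −0.10 and −0.18. The highest of the S-phase list by the smaller of both libraries was FEN1, which trims Okazaki fragments, with 0.48 and 0.43, and RRM1, the large subunit of ribonucleotide reductase, had 0.52 and 0.38 and led in library 1 alone. Of the further S-phase genes described below, CDC45 (0.84 and 0.69) and ORC1 (0.62 and 0.54), which act at replication origins, were past 0.5 in both libraries. CCND2 had the lowest ratios of the 42 (−0.28 and −0.28), CCND1 was near 0 (0.05 and −0.07), CDKN1A was −0.02 and −0.09 and CDKN1B 0.46 and 0.46. With the split on unthinned UMIs 24 members were past 0.5, as were 7.98% of all genes, and the 6 that were not mitosis genes were CDC6, FEN1, MCM5, PCNA, RRM1 and RRM2. In the split on thinned UMIs, positive cells were deeper before thinning, with medians of 37370 against 26812 UMIs in library 1 and 35322 against 24880 in library 2.

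**Figure D5:**
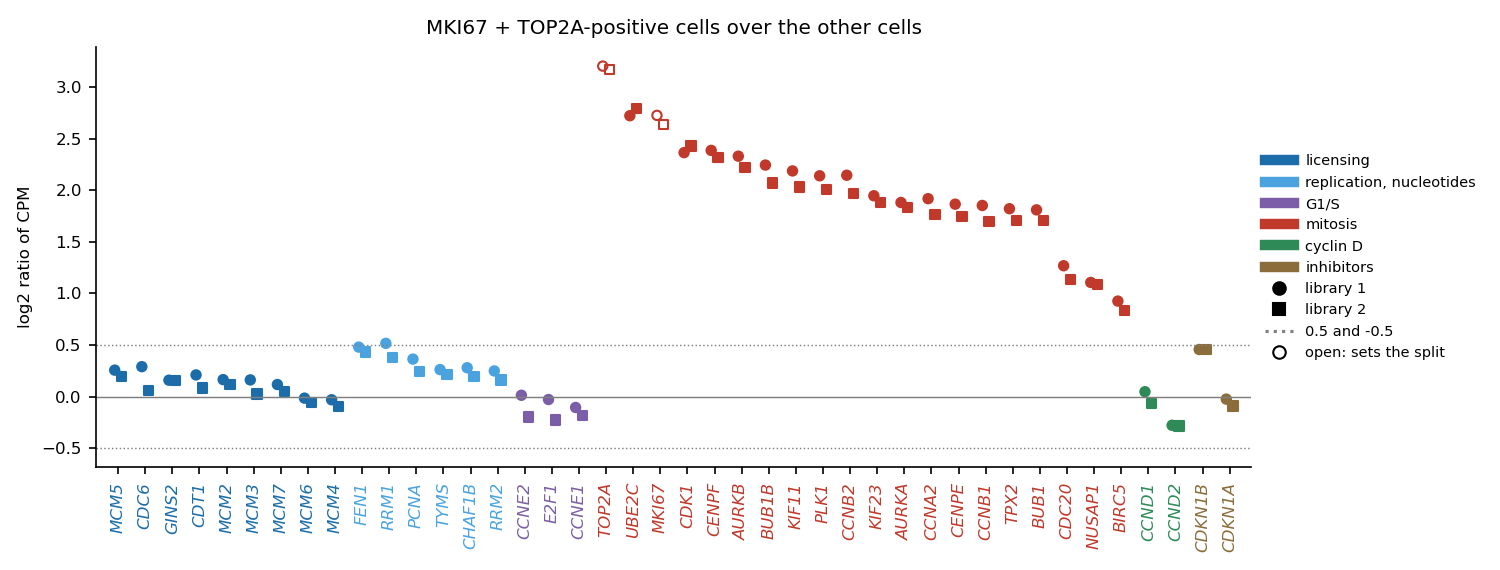
Log2 ratio of CPM between cells positive for MKI67 and TOP2A and the other cells, per library, for the 42 genes by role, with dotted lines at 0.5 and −0.5 and open symbols for the genes that set the split. The 18 other mitosis genes lie between 0.84 and 2.79, and the licensing, replication and G1/S genes lie near or below 0.5.

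Other genes of the pathway were read from a list of 64 names, of which 63 were in the tables. Of 16 further mitosis genes, 14 were higher in the COL3A1 gate, 14 in the POU5F1 gate and 7 in the CRABP1 gate, 7 were lower in the GABRP gate and 9 in the THSD7B gate, and in the TP63 gate 2 were higher and 2 lower. Of 10 further S-phase genes, 7 were higher in the POU5F1 gate, 5 in the CRABP1 gate and 5 in the COL3A1 gate, where 1 was lower, and 7 were lower in the GABRP gate, 3 in the THSD7B gate and 1 in the TP63 gate. For all counts of this paragraph, the shares of all genes called are those given above. They were 25.3% higher and 21.5% lower in the POU5F1 gate, and 24.4% and 19.0% in the COL3A1 gate. In the same order they were 15.4% and 12% in the CRABP1 gate and 25.2% and 17.1% in the GABRP gate. The TP63 gate had 17.1% and 13.3%, and the THSD7B gate 7.74% and 7.95%. Of 9 p53 target genes, 7 were higher in the GABRP gate, among them GADD45A (1.49) and SESN2 (0.56), and 6 were lower in the COL3A1 gate, where MDM2 had a log2 fold change of −0.61 and PLK2, the 1 that was higher there, 1.75. In the POU5F1 gate 1 was higher and 5 lower, in the CRABP1 gate 1 higher and 4 lower, in the TP63 gate 4 higher and 1 lower and in the THSD7B gate 2 higher and 2 lower. The G1 kinase CDK6 had 144 and 152 CPM in the COL3A1 gate and 17.0 and 11.5 CPM in the POU5F1 gate, with log2 fold changes of 2.23 and −1.99. MYC had 40.3 and 51.4 CPM in the COL3A1 gate and 7.37 and 9.40 CPM in the GABRP gate (2.06 and −0.76). CDKN1C (p57), a further inhibitor, was highest in the THSD7B gate, with 496 and 549 CPM, and its log2 fold change there was 1.74. Each fold change of this paragraph passed the edgeR test. Of 10 genes of the RB and E2F families, 7 were higher in the POU5F1 gate and 1, RB1, lower (−0.75), and RB1 was higher in the TP63 gate (0.66) and in the GABRP gate (0.52). In the COL3A1 gate 3 of the 10 were higher and 4 lower, RB1 among the lower. In the GABRP gate 1 was higher and 2 lower. In the CRABP1 gate 2 were higher, in the TP63 gate 2 higher, and in the THSD7B gate 2 lower.

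Outside the list of 42, the genes with at least 10 CPM that followed the split most closely were KIF18B, KIF18A, CCNF, DEPDC1B, SGO1, ASPM, SPAG5, CDCA3, KIF14 and CKAP2, with log2 ratios of at least 2.01 in both libraries. Many encode mitotic motors, spindle proteins or the guardian of sister chromatids (SGO1). At the other end, TAC3, which encodes a tachykinin peptide, had 14.7 and 78.9 CPM in positive and other cells of library 1 and 10.9 and 54.8 CPM in library 2 (−2.42 and −2.33). TAC3 was also 175 CPM in the GABRP gate and at or below 29.4 CPM in the other 5 gates. S100A6, EMP1, ADAM28, CYP17A1, SLC7A4, ITGB6, TINAGL1, CLVS2 and LOC100511764 followed, with ratios from −1.27 to −1.78.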

How the data were processed

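The members and gene lists were chosen with earlier results of these data known. The authors deposited raw UMI counts per gene and barcode, made with Cell Ranger 7.1.0 according to the submitters' processing notes, and FPKM values per transcript, for which those notes name Trim Galore 0.6.4, HISAT2 2.2.1 and StringTie 2.2.1. Whether counting used strand is not given in the sources used here, and the genes MCM7, PLK1, CCNE2, GINS2, CCNA2, AURKA and NUSAP1 overlap a gene on the opposite strand. The FPKM values were summed per symbol.

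Cells were thinned at random to 9805 UMIs (seed 42), which left 6638 cells in exactly 1 gate. Raw counts were summed per library and gate (12 sums, 2 libraries), scaled by TMM and tested in edgeR 4.0.16 with each gate against the mean of the other 5. The SE of a log2 fold change was derived from the test, as its absolute value divided by the square root of the quasi-likelihood F statistic. The 6 sums of a library hold different cells of the same library, so sums are paired by library by construction. The correlation of same-library deviations between gates ran from 0.0108 to 0.201. DESeq2 1.42.0 gave an alternative. On counts simulated for the GABRP comparison with 16444 genes, 84 of 100 genes changed by 1 on the log2 scale and 91 of 100 changed by 2 were called, with 12 unchanged genes. Scrublet in Scanpy 1.11.5 marked 1 and 0 doublets by its own limit and so did not work, and the 434 and 535 cells with the highest scores were left out in an alternative only. Named genes were the 42 members, given by role, and the 10 other genes of at least 10 CPM with the largest log2 ratio in each direction, by the smaller of both libraries.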

Additional observations from a re-analysis of the deposited data

How the results depend on the processing

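The percent of positive cells depended on how deeply cells were read and on how gates were set. In the order POU5F1, CRABP1, GABRP, TP63, THSD7B and COL3A1, it was 26.8, 24.4, 11.5, 17.3, 7.50 and 25.4% with cells thinned to 5000 UMIs, and 63.0, 49.6, 39.1, 43.7, 11.2 and 47.5% without thinning. With depth classes weighted equally, which was chosen after seeing the data, it was 37.6% for POU5F1, 39.3% for CRABP1, 31.7% for TP63, 45.8% for THSD7B and 47.0% for COL3A1. The value for THSD7B rests on classes of 1 to 3 cells in all but the shallowest class. With a gate of 2 UMIs it was 24.3% for GABRP, 20.0% for THSD7B and 35.8% for COL3A1, and with a gate of 5 UMIs 44.4% for POU5F1, 17.0% for GABRP, 24.6% for TP63, 8.70% for THSD7B and 36.2% for COL3A1. With every cell that passes a gate it was 24.5% for TP63 and 35.1% for COL3A1, and with doublets left out 19.7% for GABRP, 14.3% for THSD7B and 35.6% for COL3A1. The GABRP gate lay below the POU5F1, CRABP1, TP63 and COL3A1 gates under each of these settings.

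Of the member counts, genes higher in the TP63 gate were 5 without a filter on low counts (12.8% of all genes), 6 with the library as a replicate block (18.8%) and 7 with doublets left out (19.0%), against 3 (17.1%). Genes higher in the THSD7B gate were 2 by DESeq2 (11.2% of all genes), 1 with RLE size factors (8.49%), 1 with a gate of 2 UMIs (6.12%) and 1 with doublets left out (8.24%), against 0 (7.74%), and genes lower there were 4 with a gate of 2 UMIs (5.3%), against 13 (7.95%). Without the THSD7B gate, chosen after seeing the data, 5 genes were lower in the CRABP1 gate (20.5% of all genes) and 20 in the TP63 gate (21.7%), and PLK1 in the TP63 gate had a log2 fold change of −0.22 in place of 0.07. The block changed 14 of 252 member calls. The cause of these changes was not tested. Of 847 alternatives for 124 named values, 798 were counted as the same, 27 as weaker, 21 as stronger and 1 as reversed. Alternatives that read 1 library alone have no p-value. They could only count as the same, since every gene called had the same sign in both libraries. In the others, a value past the threshold in neither setting counted as the same, whatever its direction.

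In pESCs, the mean log2(FPKM + pseudocount) was 2.78 for the G1/S genes and 2.91 for the D-type cyclins with a pseudocount of 0.1, against 3.05 and 3.13 with 1, and 5.19 for the mitosis genes with the highest transcript alone, against 5.55 with transcripts summed. The THSD7B gate is limited by its 43 cells in both libraries.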
